A study of Trichoderma reesei with 4 samples.

Results

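The early and stably raised genes of Trichoderma reesei already stood well above their mycelial level at the first sampled time of asexual sporulation. From then on their means stayed within 2-fold of each other. The members were chosen by the deposited mean log2 expression values. Each of the 3, 6 and 9 h means had to lie at least 1.5 above the 0 h mean, a 2.83-fold rise, and the highest and the lowest of the 3 sporulation means had to differ by less than 1, which is 2-fold. The rise alone was met by 3.66% of all features for 3 h, by 3.37% for 6 h and by 3.98% for 9 h. Of 9126 features, 91 met both conditions. The rule leaves out 3 identifiers by name, 2 of which had met it, and 89 members remain. The means of all 4 times chose the members, so their levels and changes are given as a description, with no test.

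The fungus is a filamentous ascomycete known for its secreted cellulases, and the strain in every group was QM9414, a mutant from the early cellulase breeding lines that the labels describe as producing little cellulase. Plates of malt extract agar under a sheet of cellophane carried the cultures, and conidiation was followed by microscopy and by the activity of the D-mannitol dehydrogenase LXR1. Mycelium taken as the control is the 0 h group, and sporulating cultures at 3, 6 and 9 h are the other groups, each with 2 biological replicas per the series' design text, while the growth protocol says at least 2. The table holds the mean and SD of these replicas on the log2 scale, and every level below is a mean ± SD (n = 2) on that scale. No culture kept from sporulating was sampled at 3, 6 or 9 h, so time in culture and sporulation cannot be told apart. The sporulation groups can hold both hyphae and forming conidiophores, and their shares were not measured here. More cells of a kind and more RNA per cell therefore cannot be told apart.

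Conidia are the asexual spores by which this fungus spreads. They are formed on aerial branched hyphae, the conidiophores, which need a new cell wall, a water-repellent coat of hydrophobins, pigment and stored carbon such as mannitol and trehalose. In filamentous fungi light, contact with air and shortage of nutrients start this programme, and genes switched on at its start and kept on can serve the growth of the conidiophore as well as the spores. All 89 members were listed in RefSeq's gene table for strain QM6a (assembly v2.0), but 0 carried a symbol there, against 235 of all 9126 features. The 2 features with a symbol that met the rule were the ones left out by name, so nothing is read from the 0. The members are therefore named by identifier, and no function is given for any of them.

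Across all features the median level was 11.56 at 0 h and between 11.53 and 11.56 at the later times. The 3 array features for the MAT1-1 mating-type genes, which the QM6a lineage does not carry, lay between 4.0 and 5.53 over the 4 times and mark the level of unspecific signal. Probes differ in brightness, so the level of a member shows its place on the array's scale and not the abundance of its RNA relative to other genes.

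The members rose by a median of 2.19 log2 units, or 4.56-fold, from 0 h to 3 h. At 6 h they stood 2.13 units, or 4.37-fold, above mycelium, and at 9 h 2.32 units, or 5.01-fold. Over all features the medians of these changes were -0.05, -0.03 and -0.04. The smallest change of any member was 1.54 at 3 h, 1.51 at 6 h and 1.52 at 9 h, and the largest was 5.39, 5.8 and 5.7. The mean of the 3 changes reached 2 log2 units in 59 members, 3 units in 14, 4 units in 3 and 5 units in 2.

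**Figure D1:**
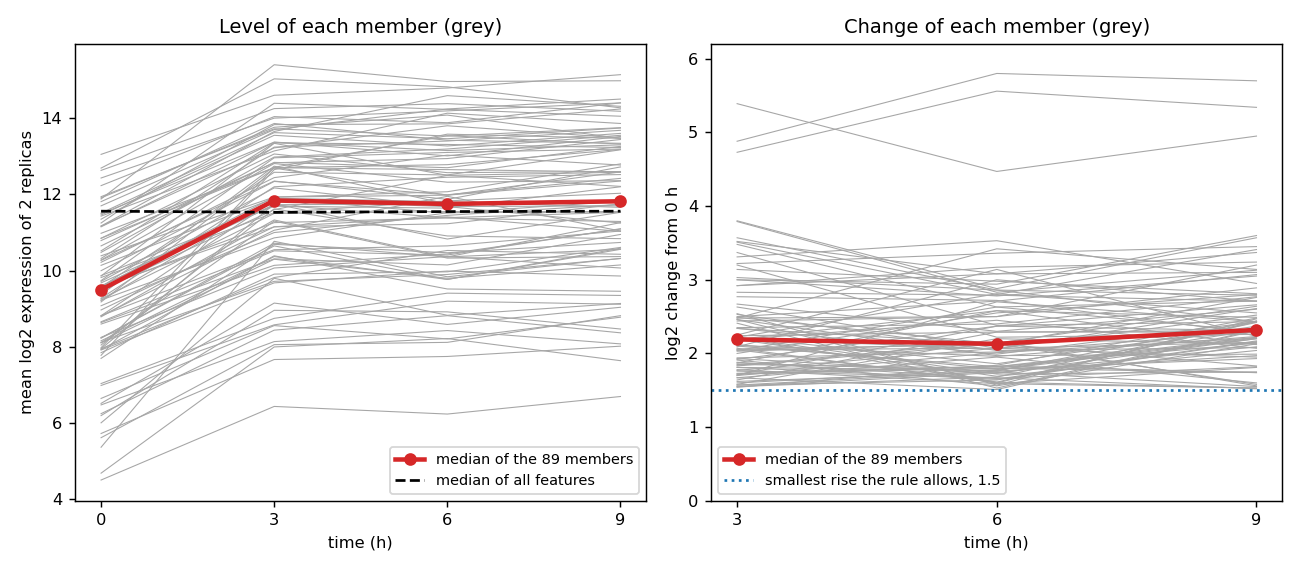
Left, mean log2 expression of each of the 89 members against time in h, with the median of the members (red) and of all 9126 features (dashed). Right, the log2 change of each member from 0 h, with the median (red) at 2.19, 2.13 and 2.32 and the smallest rise that the rule allows (dotted, 1.5); all lines climb between 0 h and 3 h and then stay within a band of less than 1 log2 unit, as the rule requires, some of them nearly level and others with steps of up to 1.0.

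The rule's smallest rise of 1.5 log2 units makes a separation of the replicas likely, so the replicas are given as a description. Both replicas at 3 h lay above both replicas at 0 h in 89 of 89 members, where 31.4% of all features did so, and the same held at 6 h (34.4% of all features) and at 9 h (34.7%). In limma's moderated test over all features, with an adjusted p under 0.05 and a 2-fold rise, 89 of 89 members were called higher at each time, where 6.77%, 6.68% and 7.48% of all features were called at 3, 6 and 9 h. The rule used these contrasts, so nothing is read from these counts. Between the higher replica at 0 h and the lowest replica of the sporulation times the distance was 0.87 in the least separated member, TRIRE2_106315, 1.74 in the median member and 4.65 in the most separated. In 58 members even this closest distance was 1.5 or more, and in 88 it was 1 or more. No share over all features is given for these distances, which the rule also shaped, and nothing is read from them.

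A pair of members, TRIRE2_106490 and TRIRE2_121417, had the largest mean rises, 5.46 and 5.21 log2 units, and they are direct neighbours in the genome. The replicas of TRIRE2_106490 in mycelium were 7.66 and 7.9, and those of the 3, 6 and 9 h cultures were 12.55 and 12.76, 13.51 and 13.64, and 13.42 and 13.53. For TRIRE2_121417 the mycelial replicas were 7.83 and 8.13, and the later ones, in the same order, 12.7 and 12.72, 13.46 and 13.62, and 13.3 and 13.34. In both genes no replica at 0 h came near any later one, and the level still climbed between 3 h and 6 h, from 12.65 to 13.58 in the first and from 12.71 to 13.54 in the second. At 9 h they stood 51.8-fold and 40.5-fold above mycelium, with a standard error of 0.13 and 0.12 log2 units from limma's fit.

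The third largest measured mean rise, 4.94, was that of TRIRE2_70197, and it had the opposite course. Its mycelial level was 5.37 ± 0.46, and its 3, 6 and 9 h levels were 10.77 ± 0.2, 9.84 ± 0.19 and 10.32 ± 0.1. It was highest at 3 h, 42-fold above mycelium. The mean 0 h level lay within the range of the MAT1-1 features, so the measured rise may be a lower bound. Of its 0 h replicas, 5.05 and 5.7, the higher lay above that range. Another 2 members started within that range, TRIRE2_109944 at 4.51 ± 0.018 and TRIRE2_124299 at 4.69 ± 0.067. TRIRE2_109944 stayed dim, with 6.44 ± 0.73, 6.24 ± 0.14 and 6.7 ± 0.13 during sporulation. TRIRE2_124299 reached 8.0 ± 0.25, 8.22 ± 0.0089 and 7.64 ± 0.25. By their means, the other 86 members were above the MAT1-1 range in mycelium already.

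The next largest measured mean rise was the 3.42 of TRIRE2_120031. The place of TRIRE2_124299, with a measured mean rise of 3.26, is uncertain, since its mycelial level was within the MAT1-1 range. The level of TRIRE2_120031 went from 7.95 ± 0.00025 in mycelium to 11.75 ± 0.11, 10.83 ± 0.18 and 11.53 ± 0.2 in the sporulation samples. The member TRIRE2_62165 held the flattest course among the 10 largest rises, at 9.74 ± 0.26, 12.96 ± 0.096, 13.1 ± 0.11 and 13.19 ± 0.068 in order of time. Its 3 sporulation means lay within 0.23 of each other, 10.1-fold above mycelium on average. TRIRE2_55274 was at 6.01 ± 0.13 in mycelium and at 9.8 ± 0.35, 8.83 ± 0.1 and 9.14 ± 0.025 afterwards, and TRIRE2_74282 at 9.18 ± 0.37 and then at 12.69 ± 0.1, 11.98 ± 0.13 and 12.59 ± 0.26. Both were highest at 3 h and lowest of the sporulation times at 6 h.

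TRIRE2_80659 came close to the top of the array's scale. It was already at 11.88 ± 0.16 in mycelium and stood at 15.4 ± 0.054, 14.96 ± 0.00095 and 14.98 ± 0.014 in sporulation. The mean of these 3 levels, 15.11, was the highest of any member. The 3 h level, 11.4-fold above mycelium, is near the highest level on the array, 15.93. The tenth member by mean rise, TRIRE2_46764, had the least certain control, with replicas of 9.04 and 10.1 at 0 h. Its sporulation levels were 12.58 ± 0.21, 12.51 ± 0.16 and 13.17 ± 0.1, and the standard error of its changes was 0.3.

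**Figure D2:**
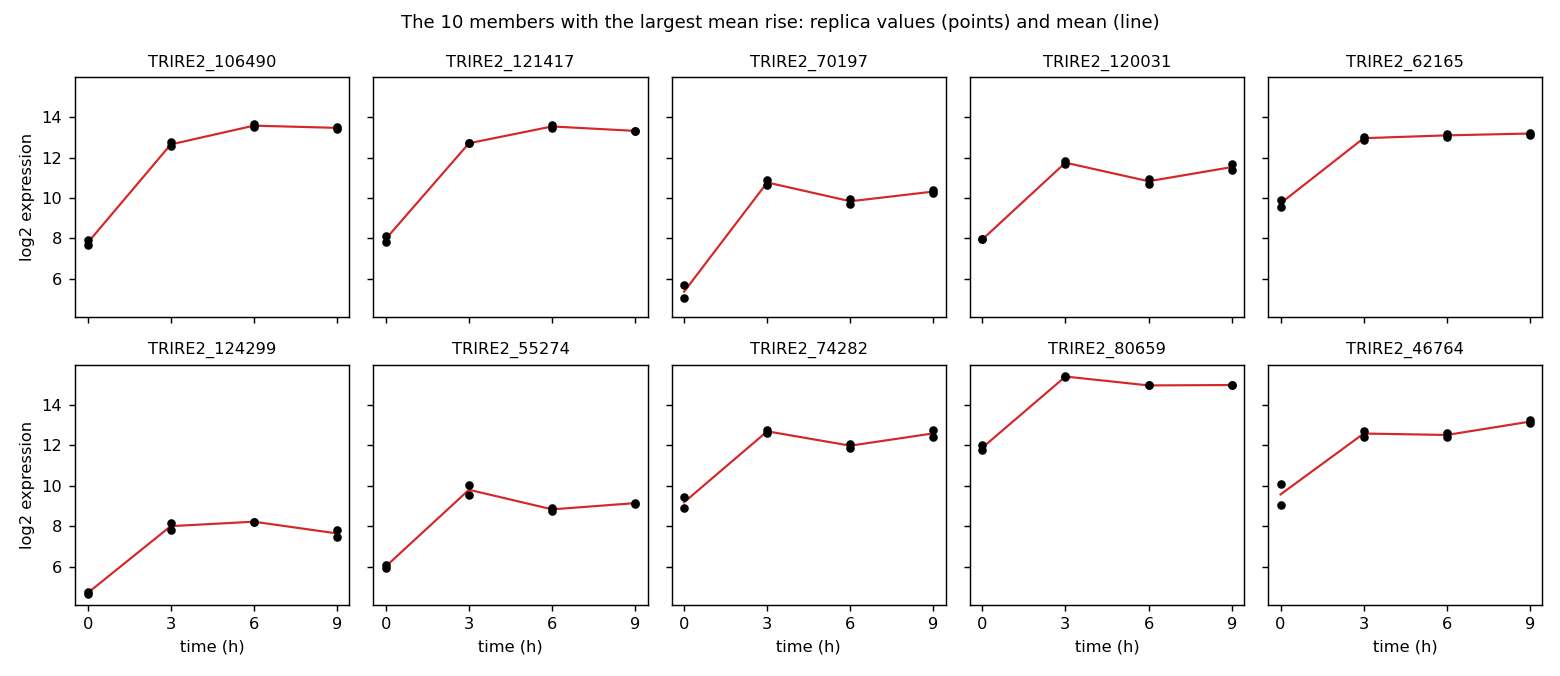
Log2 expression against time in h for the 10 members with the largest mean rise, in order from the upper left; points are the 2 replica values at each time, derived from the mean and SD, and the line joins the means. In all 10 panels the points at 0 h lie below all later points, and the replicas of TRIRE2_46764 at 0 h, 9.04 and 10.1, are the farthest apart.

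By the rule every member rose, also those with the highest levels in mycelium. Of the 89 members, 1 lay above the 75th percentile of all features at 0 h, 12.88. The highest 0 h level was that of TRIRE2_73516, at 13.05 ± 0.28, which climbed to 14.6 ± 0.11, then 14.79 ± 0.087 and then 15.14 ± 0.034. TRIRE2_122108 started at 12.69 ± 0.54 and went the other way after its rise, with 15.03 ± 0.15, 14.82 ± 0.19 and 14.27 ± 0.18. For TRIRE2_74745 the level was 12.63 ± 0.27 in mycelium and 14.25 ± 0.21, 14.38 ± 0.11 and 14.18 ± 0.039 later. These 3 had mean rises of 1.79, 2.02 and 1.64, in the lower part of the members' range. Of the members at or above their own median 0 h level of 9.5, the median of the mean rise was 2.1 (45 members), and of those below it 2.3 (44 members). In all, 79 of the 89 lay below the median of all features at 0 h and 46 below its 25th percentile of 9.57. In sporulation 49 lay above the median and 12 below the 25th percentile, 9.63, of the mean over 3, 6 and 9 h.

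Within the sporulation times the members were not all equally flat. The distance between the highest and the lowest of the 3 means had a median of 0.56, with quartiles of 0.38 and 0.76. Over all features the median was 0.35, with quartiles of 0.2 and 0.59, so a typical member was less flat than a typical feature. A distance under 1 was found in 8288 of all 9126 features. The most constant was TRIRE2_105269, at 9.26 ± 0.0051 in mycelium and then at 11.5 ± 0.18, 11.55 ± 0.085 and 11.55 ± 0.041, a distance of 0.05. TRIRE2_21509 kept within 0.1, at 11.73 ± 0.32, 11.75 ± 0.07 and 11.83 ± 0.052, TRIRE2_62367 within 0.11, and both TRIRE2_5011 and TRIRE2_54226 within 0.12. In 80 of 89 members both replicas of the highest sporulation time lay above both replicas of the lowest, as in 84.3% of all features. The members' share is near that of all features, and nothing is read from it.

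The highest of the 3 means fell at 9 h in 40 members, at 3 h in 29 and at 6 h in 20. The commonest order was 3 h lowest, 6 h in between and 9 h highest, in 24 members. This ranks the means alone, so steps within the replica spread count too. In 21 of the 24 both replicas at 9 h lay above both at 3 h. Of all features, 84.3% had the replicas of their own highest and lowest times apart, so nothing is read from this. The median change of the 24 from 0 h was 1.97 at 3 h, 2.13 at 6 h and 2.45 at 9 h. TRIRE2_62165 led this group, followed by TRIRE2_48080, which went from 10.32 ± 0.059 to 13.24 ± 0.0021, 13.4 ± 0.11 and 13.68 ± 0.053. The next was TRIRE2_73179, at 9.28 ± 0.068 and then 12.2 ± 0.075, 12.45 ± 0.015 and 12.52 ± 0.066.

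A group of 19 members was highest at 3 h, lowest at 6 h and in between at 9 h. Their median changes were 2.63, 2.13 and 2.43, and TRIRE2_70197, TRIRE2_120031, TRIRE2_55274, TRIRE2_74282 and TRIRE2_80659 belong to it. In 16 members the lowest mean at 6 h was followed by the highest at 9 h, with median changes of 2.09, 1.76 and 2.35. TRIRE2_46764 led these. The level of TRIRE2_56546, the next in this group, was 7.7 ± 0.039 in mycelium and 10.69 ± 0.00061, 10.47 ± 0.04 and 10.74 ± 0.053 in sporulation. By the means alone, 6 h was thus the low point of sporulation in 35 of the 89 members. In some of these the 9 h mean was barely higher, by 0.02 in TRIRE2_80659, which is a fall after 3 h and then a level course. No share over all features is given, and nothing is read from the count.

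In 13 members the level was lowest at 3 h and highest at 6 h, with median changes of 1.87, 2.63 and 2.43. TRIRE2_106490 and TRIRE2_121417 were the first of these, and TRIRE2_120059 came next with 11.17 ± 0.26 in mycelium and 13.65 ± 0.21, 14.59 ± 0.2 and 14.31 ± 0.029 later. In 10 members the means fell from 3 h over 6 h to 9 h, with median changes of 2.61, 2.42 and 2.0. In 8 of the 10 both replicas at 3 h lay above both at 9 h, beside the 84.3% of all features given above. TRIRE2_5807 led the 10, at 8.05 ± 0.46 and then 11.62 ± 0.11, 10.91 ± 0.004 and 10.84 ± 0.19. TRIRE2_122495 followed, at 11.25 ± 0.1 and then 14.39 ± 0.18, 14.23 ± 0.087 and 14.05 ± 0.049. The remaining 7 peaked at 6 h and were lowest at 9 h.

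Between neighbouring times, 31 members had both replicas at 6 h above both at 3 h (34.1% of all features) and 31 had them below (27.3%). From 6 h to 9 h the replicas moved apart upwards in 49 members (31.0% of all features) and downwards in 17 (33.6%). From 3 h to 9 h they did so upwards in 43 (34.3%) and downwards in 22 (29.8%). The rule limits these steps to less than 1 log2 unit, and nothing is read from the counts.

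Close to the thresholds the choice of members is a matter of hundredths of a log2 unit. Just inside the smallest rise were TRIRE2_122579 at 1.512, TRIRE2_67971 at 1.522 and TRIRE2_80973 at 1.528. Just outside lay TRIRE2_107852 and TRIRE2_121163, both at 1.491, and TRIRE2_121439 at 1.454. The largest distances between sporulation times among the members were 0.997 in TRIRE2_121136, 0.996 in TRIRE2_108340 and 0.978 in TRIRE2_121883. Just beyond were TRIRE2_105533 at 1.001, TRIRE2_35552 at 1.006 and TRIRE2_71170 at 1.02.

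Features that rose as early but did not hold their level form the nearest group for comparison. Besides the 91, 74 features stood at least 1.5 above 0 h at all 3 times with a distance of 1 or more between the sporulation means. Their median changes were larger, 3.09 at 3 h, 2.86 at 6 h and 3.71 at 9 h, and their median 0 h level was 7.53 against 9.5 in the members. Of these 74, 35 were highest at 3 h, 6 at 6 h and 33 at 9 h. A middle peak was thus found in 8.11% of them and in 22.5% of the members. The rule used these values, so the contrast is a description.

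Genes with a symbol show what the rule takes in and what it leaves out. Of the 12 features with a symbol that rose by 1.5 or more at all times, the hydrophobin genes hfb2 and hfb3 met the rule but are among the identifiers left out by name, with distances of 0.53 and 0.69 between the sporulation means. The other measured hydrophobin gene, hfb1, did not rise, with changes of -0.5, -0.24 and -0.18. The other 10 of the 12 varied by more than the rule allows. They are 9 genes for the breakdown of plant cell walls (axe1, cel12a, cel5a, cel61a, cel61b, cel7a, cip1, cip2 and man5a), all highest at 3 h, and ooc1, highest at 9 h. The least variable of them was the cellobiohydrolase gene cel7a, with a distance of 1.3, and the most variable was the glucuronoyl esterase gene cip2, with 4.92. In the list of 17 cellulase and hemicellulase genes as a whole, 9 rose by 1.5 or more at all times and 0 kept within 1 while doing so, where 165 and 91 of all 9126 features did.

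Among the features with a symbol, lxr1, env1 and phr1 kept within the allowed distance but missed the rise, and would have met the rule with a smallest rise of 1. The beta-glucosidase gene cel1a narrowly missed both conditions, with a smallest rise of 1.28 and a distance of 1.03. The gene lxr1, for the D-mannitol dehydrogenase used as the marker of conidiation, missed the smallest rise at 3 h alone, with changes of 1.37, 1.98 and 1.93 and a distance of 0.61. Changes of env1, a light-response regulator, were 1.45, 1.07 and 1.33. For TRIRE2_107680, which the table calls phr1, they were 1.48, 1.13 and 1.77. The name phr1 is that of a DNA photolyase, a light-dependent repair enzyme, but its match to this identifier was not checked. All 4 measured genes of the light-response list, env1, phr1, blr1 and blr2, kept within 1 over the sporulation times, as did 8288 of all 9126 features. The median changes of the 4 were 0.98, 0.73 and 0.99. No gene of the lists for chitin and glucan degradation (18 measured), cellulase regulators (7) or signalling (12) rose by 1.5 or more at all times, a rise that only 165 of all 9126 features made, so nothing is read from these counts. Their median changes lay between -0.18 and 0.22. The list for oxidative stress held sod1, which rose at 3 h alone, with changes of 3.91, -0.73 and -1.64, and cat1, with -0.01, -0.06 and 0.05. Neither met the rise at all times. The list of conidiation genes could not be filled from the symbols.

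**Figure D3:**
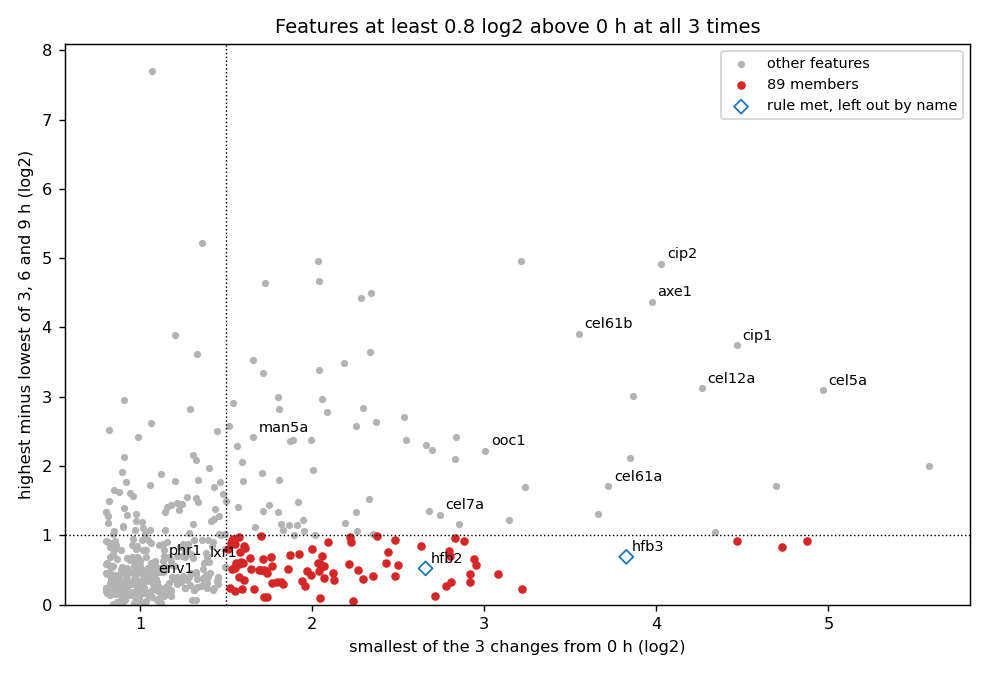
For each feature at least 0.8 log2 units above 0 h at all times, the smallest of its 3 changes from 0 h (x axis, log2) against the distance between the highest and the lowest of the 3, 6 and 9 h means (y axis, log2). Red points are the 89 members, diamonds the 2 features left out by name, and dotted lines the thresholds of 1.5 and 1; the 9 named plant cell wall genes to the right of the vertical line lie above the horizontal one, between 1.3 and 4.92.

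Position in the genome was not part of the rule. The gene table gives the order of genes along scaffolds of the QM6a assembly, and the authors' build is not named in the sources used here, so the table is used for gene order alone. A drop in start position was taken as the beginning of another scaffold. Of the 89 members, 4 (4.49%) had another member as a direct neighbour, where 174 of 9094 placed features (1.91%) were next to a member. These 4 are the pair TRIRE2_121417 and TRIRE2_106490 described above and the pair TRIRE2_62165 and TRIRE2_78462. The latter gene was at 9.5 ± 0.03 in mycelium and at 11.6 ± 0.061, 12.5 ± 0.13 and 12.21 ± 0.042 in sporulation. Within 3 genes on either side, 10 members (11.2%) had another, against 5.42% of all placed features.

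The genes next to a member, members themselves left out, numbered 170. Their median changes from 0 h were 0.18 at 3 h, 0.12 at 6 h and 0.1 at 9 h, where all placed features gave -0.05, -0.03 and -0.04. Of the 170, 16 (9.41%) stood at least 1 log2 unit above mycelium at all 3 times, against 3.76% of all placed features, and 5 (2.94%) stood at least 1 unit below at all times, against 2.13%. By the stricter rise of 1.5 the shares were 2.94% and 1.81%. The 2 sets are not alike, since all placed features include the 89 members, raised by the rule, and the 170 do not. Of the 342 placed features raised by at least 1 log2 unit at all times, 253 were not members. These shares are a description without a test, and the threshold of 1 log2 unit was chosen after the values had been seen. By this threshold 17 of 89 members (19.1%) had a raised direct neighbour, and 60 of the 253 other raised features (23.7%) did. No share over all placed features is given for a raised neighbour, so nothing is read from these counts.

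The marker gene itself was among these neighbours. Next to lxr1, at 11.96 ± 0.2 in mycelium and 13.33 ± 0.12, 13.94 ± 0.14 and 13.89 ± 0.12 in sporulation, lies the member TRIRE2_74198. It rose from 9.86 ± 0.05 to 13.34 ± 0.042 and then stood at 12.5 ± 0.0027 and 12.58 ± 0.078. The member had its peak at 3 h, 11.2-fold above mycelium, while the 6 h and 9 h levels of lxr1 lay within their replica spread of each other and above its 3 h level. Genes on the outer sides did not share the rise. TRIRE2_103012, beside lxr1, had changes of -1.36, -1.11 and -1.83, and TRIRE2_103015, beside the member, -0.52, -0.41 and -0.67.

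Stretches of 2 or more neighbouring genes, each at least 1 log2 unit above mycelium at all times, numbered 32, and 14 of these held a member. Of the 25 stretches of 2 genes, 8 held a member, and of the 7 with 3 genes or more, 6 did. All 89 members are among the 342 placed features raised in this way, so nothing is read from these counts. A stretch of 5 held the adjacent members TRIRE2_62165 and TRIRE2_78462. On one side lay TRIRE2_4146, at 10.33 ± 0.11 in mycelium and at 12.59 ± 0.013, 13.65 ± 0.014 and 13.62 ± 0.13 in sporulation, and on the other TRIRE2_32243 and TRIRE2_107947. The last of these was highest at 3 h, with changes of 1.84, 1.37 and 1.17. Outside the stretch, TRIRE2_62244 changed by 0.61, 0.97 and 0.46 and TRIRE2_78463 by 0.1, 0.41 and 0.33.

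The most constant member, TRIRE2_105269, lay in the middle of the other stretch of 5, among genes that were highest at 9 h. Changes of its neighbour TRIRE2_58717 were 1.72, 2.82 and 6.37, and those of TRIRE2_76230, one gene further, 3.22, 5.15 and 8.18. On its other side TRIRE2_58639 changed by 1.18, 1.14 and 1.93 and TRIRE2_3055 by 2.68, 2.96 and 4.03. The member held still, with 2.24, 2.29 and 2.29, while the other 4 genes were higher at 9 h than at both earlier times. A similar contrast was seen in a stretch of 4 that ended with TRIRE2_120873. That member fell slowly, with 3.03, 2.86 and 2.43, while TRIRE2_72993 beside it rose with 1.36, 2.12 and 2.3 and TRIRE2_58953 with 1.36, 4.76 and 6.57.

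In the other stretch of 4, levels ran more alike. The members TRIRE2_5011, with changes of 1.85, 1.8 and 1.74, and TRIRE2_110008, with 1.84, 2.16 and 1.56, enclosed TRIRE2_110007, with 1.73, 1.4 and 1.81, which missed the rule by its change at 6 h. TRIRE2_50618 on the outside rose by 1.03, 1.11 and 1.22. In a stretch of 3, the member TRIRE2_63568, with 1.87, 2.58 and 2.49, stood beside TRIRE2_35552, with 1.89, 2.9 and 2.6, which missed the rule by a distance of 1.006. The remaining stretch of 3 joined the member TRIRE2_112022, with 2.67, 2.3 and 2.6, to TRIRE2_69957 and TRIRE2_69944, which peaked sharply at 3 h with 4.96 and 5.02 and then stood at 2.73 and 2.05 at 6 h.

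**Figure D4:**
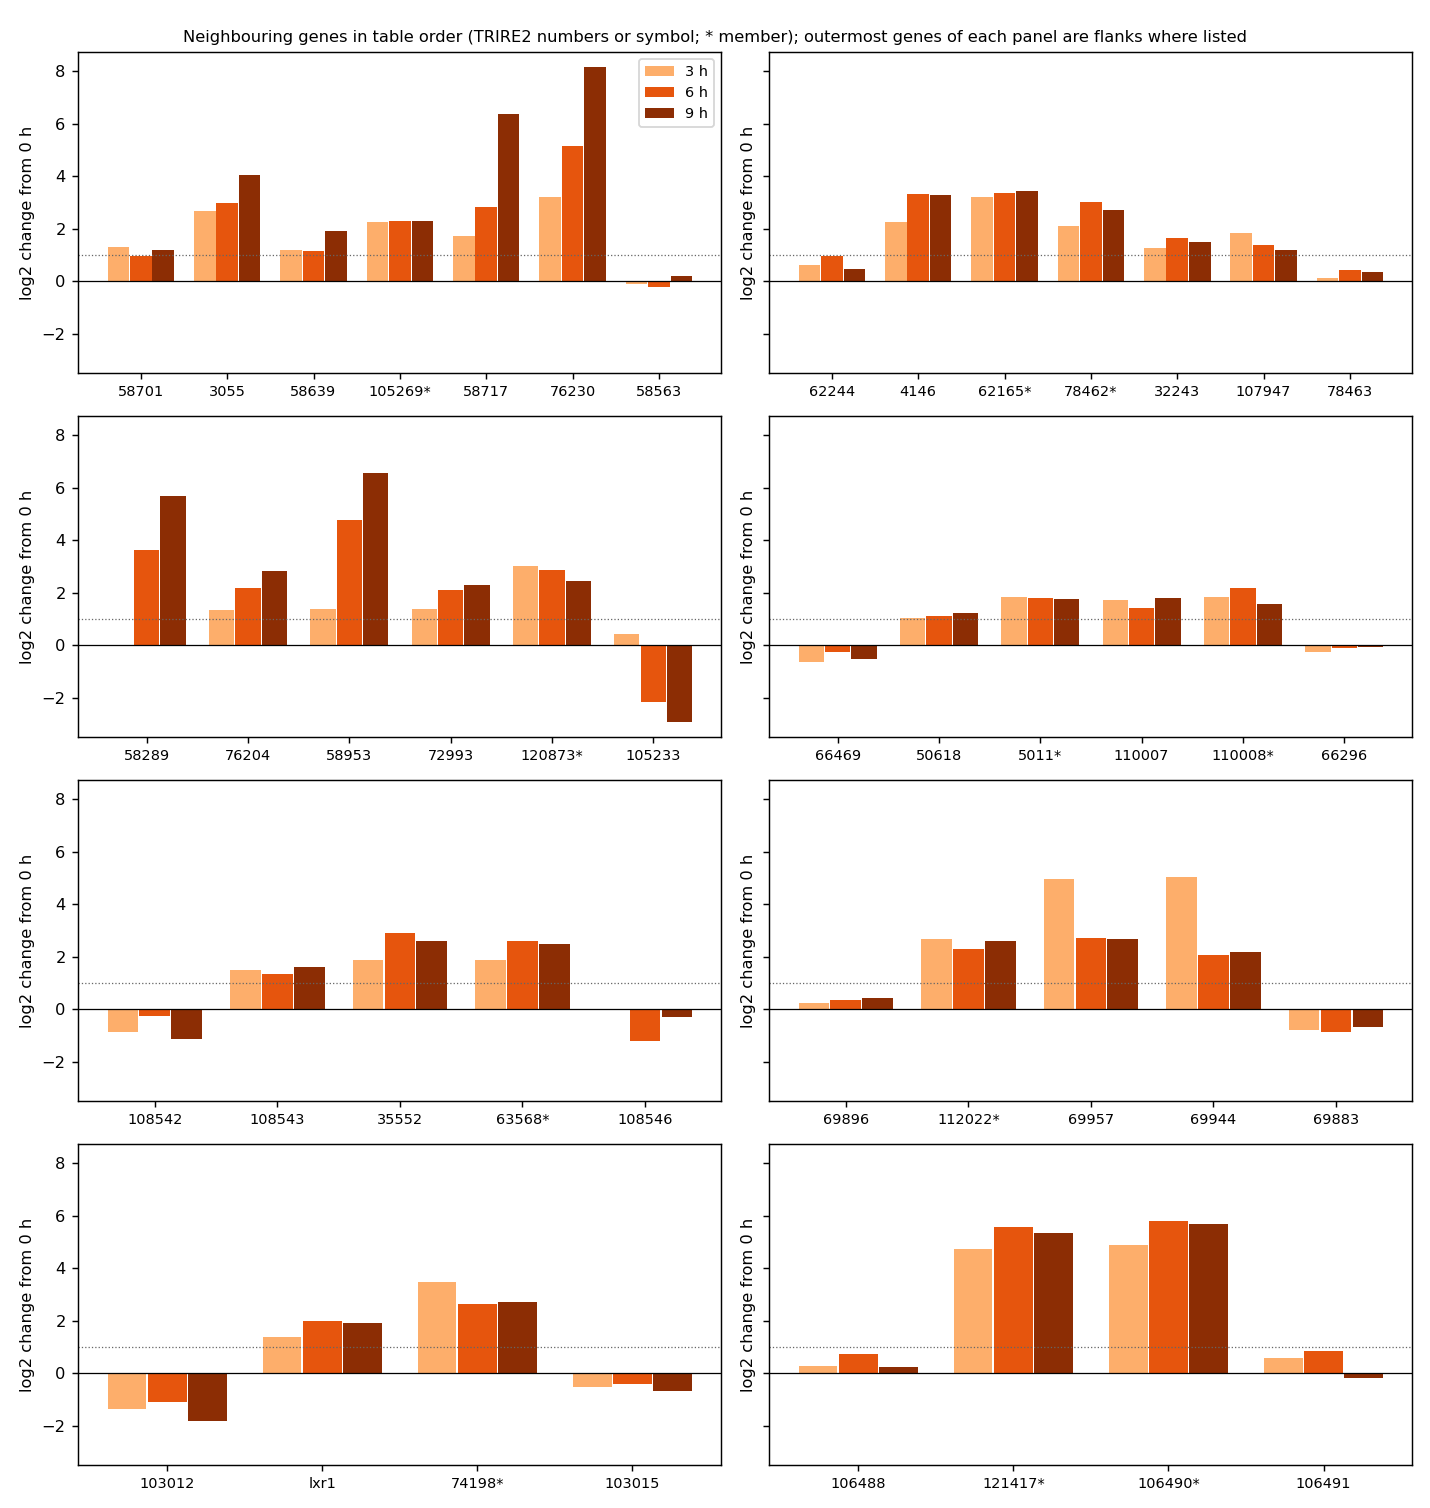
Log2 change from 0 h at 3, 6 and 9 h (bars, light to dark) for neighbouring genes in the order of the gene table, by TRIRE2 number or symbol, with members marked by a star and a dotted line at 1. The panels show the 6 stretches of 3 or more raised genes that hold a member, lxr1 with TRIRE2_74198, and TRIRE2_121417 with TRIRE2_106490, each with its flanking genes; the most constant member, TRIRE2_105269, at 2.24, 2.29 and 2.29, stands among genes that reach 1.93 to 8.18 at 9 h.

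Replica spread and gene length were not used by the rule either. The median SD of the members was 0.135 in mycelium and 0.113, 0.0979 and 0.0895 at 3, 6 and 9 h, where all features had 0.0981, 0.0992, 0.0898 and 0.0821. The largest spread was at 3 h in TRIRE2_105514, at 7.67 ± 0.9, and that gene also had the largest standard error of change, 0.39. The members' gene spans, introns included, ran from 255 to 9516 bases with a median of 1309 and quartiles of 885 and 2074. Over 9094 placed features the median span was 1503 bases and the quartiles were 1009 and 2177. The shortest belonged to TRIRE2_5011 and the longest to TRIRE2_4626, which went from 11.15 ± 0.055 in mycelium to 13.37 ± 0.043, 13.01 ± 0.085 and 13.52 ± 0.089.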

How the data were processed

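Total RNA of the 4 groups was measured on NimbleGen arrays in 1 colour (Cy3), per the labels' protocols. The authors deposited log2 expression values made with RMA, per the submitters' processing notes, as a mean and an SD for each time and 1 p-value per feature, per the file headers. The RMA version and genome build are not given in the sources used here. A second deposited table held the same log2 means (largest difference 0). RMA gives all arrays 1 distribution, so a change in total RNA is not visible. An analysis of variance over 4 times from these means and SDs, adjusted by Benjamini-Hochberg, came within 1% of the authors' deposited p-value for 98.78% of features with 2 replicas assumed and 0.15% with 3, so the SD is taken as that of 2 replicas. The replica values are then the mean ± SD/√2, without a known order.

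Members and gene lists were chosen with earlier results of these data known. Replica values were fitted with limma 3.58.1 (R 4.3.3) over all 9126 features and 4 times without covariates, which was tested on simulated data. Nothing says more of the replicas than that they are biological. Members were named by mean rise, 0 h level, flatness, nearness to a threshold and neighbourhood. Other genes named came from the gene lists or by their nearness to a member or the rule. Genes shown as examples of an order of times are the first by mean rise. Sequences were not used here.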

Additional observations from a re-analysis of the deposited data

How the results depend on the processing

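The number of members, 89, followed the thresholds of the rule. It was 226 with a smallest rise of 1 and 42 with 2, and 38 with a distance between sporulation times under 0.5. Asking for the rise between the closest replicas left 58. Leaving out the lower or the higher replica of a time for every feature, an alternative chosen after seeing the data, gave 69 to 110. Members above the 25th percentile at 0 h had a median change of 2.01 at 6 h. At 4-fold, limma called 187, 169 and 223 of all features higher at 3, 6 and 9 h, in place of 618, 610 and 683. The share of members near another was 11.2% within 3 genes, by the wider window. The other 27 of 36 alternatives kept their values within the limits of 1.5 times for counts or 1 SD between replicas for medians. No paired analysis was possible because the replicas carry no numbers. Alternatives on promoters and proteins were not run. The cause of each difference beyond the stated settings was not tested. With 2 arrays per time the number of arrays limits the precision.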
